A study of Mus musculus with 7 samples.

Results

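The heat-shock proteins and chaperones described here are 10 genes, Hspa1a, Hspa1b, Dnajb1, Hsph1, Hsp90aa1, Hspa8, Hsp90ab1, Hspa5, Hspd1 and Hspe1, of the 25033 genes listed in each library. They were chosen by name, with earlier results of the same comparison known, so their difference between the groups is given as a description, with no p for a member and with counts of calls set beside those over all genes without reading anything from them. The series holds RNA sequencing libraries of T-cells from C57BL/6J mice labelled as 15 months old, 3 from wild-type (WT) littermates and 4 from ORP4L knock-in (KI) mice. The KI mice carry the coding sequence of human ORP4L, a lipid transfer protein of the oxysterol-binding family, in the Rosa26 locus. It lies behind a CAG promoter and a loxP-flanked stop, with a Flag tag and an EGFP reporter. The stop is removed by Cre under the T-cell promoter Lck, so the transgene marks cells of that lineage, and the study sampled the KI animals when moribund. T-cells were taken from blood or from collagenase-digested spleen, red cells were lysed, and CD4+ T-cells were isolated with a naive CD4+ kit, a selection meant to remove granulocytes, dendritic cells and other non-T-cells. The source of each library, and whether the culture with IL-2 and PHA described in the methods preceded these libraries, is not given in the sources used here. All values are from bulk RNA, in which fewer cells of a type and less RNA per cell cannot be told apart.

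Chaperones bind unfolded protein chains and help them fold, refold or be degraded. The HSP70 proteins do so by cycles of ATP hydrolysis that J-domain proteins start and nucleotide exchange factors end, HSP90 acts later on kinases and receptors, and HSP60 with its lid HSP10 folds proteins within mitochondria. Some of these genes are transcribed in every cell, whereas others are switched on by heat-shock factor (HSF) when unfolded protein accumulates, and in lymphocytes also by warming, handling and activation. Accordingly, 5 members were taken as stress-inducible cytosolic genes (Hspa1a, Hspa1b, Dnajb1, Hsph1 and Hsp90aa1) and the 5 others as constitutive, endoplasmic reticulum (ER) or mitochondrial genes (Hspa8, Hsp90ab1, Hspa5, Hspd1 and Hspe1).

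The total count per library was between 12918187 and 19665679, and the 10 members took 1.47%, 1.35% and 1.31% of the reads in WT and 0.661%, 1.55%, 2.01% and 1.76% in ORP4L KI, listed by replicate number as in all series of values here. The first of the ORP4L KI libraries, replicate 1, stood apart. There, 14 granulocyte markers summed to 144044 CPM (read counts scaled to library size by TMM), against 10224, 30680 and 52957 CPM in ORP4L KI replicates 2, 3 and 4 and between 1656 and 4866 CPM in WT. The 10 T-cell markers summed to 1316 CPM in that library and to between 2014 and 3896 CPM in the 6 others, and no marker of either list was at 0 in any library. Osbp2, the mouse gene for ORP4L, had 0, 0 and 1 reads in WT and 188, 742, 155 and 443 in ORP4L KI, following the labels. The transgene is human while reads were mapped to mouse mRNA, and the counts do not separate transgene reads from those of the mouse gene. WT replicates 2 and 3 and ORP4L KI replicates 3 and 4 had between 120.8 and 208.0 CPM of the Y-linked gene Ddx3y, whereas the 3 other libraries had at most 3.35 CPM and between 372.7 and 650.6 CPM of Xist. Values are therefore also given, as descriptions, without ORP4L KI replicate 1 and within these subsets.

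The sequences before the start sites are shown for the members whose values the comparison turns on, namely the inducible pair Hspa1b and Hspa1a, which moved together, Hsph1, whose fitted difference was the largest among the 10, the divergently transcribed mitochondrial pair Hspd1 and Hspe1, and the ER member Hspa5. They were taken from RefSeq (GRCm38.p6), in which 7 of the 10 members were matched, and Hspa8, Hsp90aa1 and Hsp90ab1 were not. Each is written 5′ to 3′ on the strand of the gene, with capitals marking a match, on either strand, to the HSF unit arrangements GAANNTTC or TTCNNGAA or, in Hspa5, to the ER stress element, CCAAT and CCACG with any 9 bases between them. The Hspd1 and Hspe1 stretch is the 215 bases between the start of Hspe1 and the facing one of 2 starts listed for Hspd1, written on the strand of Hspe1.
Hspa1b, chr17:34959239-34959488, minus strand: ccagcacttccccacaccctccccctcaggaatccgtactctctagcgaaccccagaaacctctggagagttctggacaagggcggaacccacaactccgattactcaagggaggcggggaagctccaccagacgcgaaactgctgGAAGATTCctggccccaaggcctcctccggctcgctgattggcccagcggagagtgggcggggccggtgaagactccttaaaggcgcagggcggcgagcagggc
Hspa1a, chr17:34972157-34972406, minus strand: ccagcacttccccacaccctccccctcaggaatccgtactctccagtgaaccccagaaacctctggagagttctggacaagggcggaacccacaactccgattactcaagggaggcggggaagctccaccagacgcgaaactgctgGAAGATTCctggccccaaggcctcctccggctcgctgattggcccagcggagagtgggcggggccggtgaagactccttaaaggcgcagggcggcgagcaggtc
Hsph1, chr5:149636337-149636586, minus strand: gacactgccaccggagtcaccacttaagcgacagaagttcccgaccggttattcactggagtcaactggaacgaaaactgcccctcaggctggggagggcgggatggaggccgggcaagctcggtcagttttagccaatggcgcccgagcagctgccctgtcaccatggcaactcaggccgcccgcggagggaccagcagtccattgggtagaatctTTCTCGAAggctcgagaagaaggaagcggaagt
Hspd1 and Hspe1, chr1:55087933-55088147, plus strand: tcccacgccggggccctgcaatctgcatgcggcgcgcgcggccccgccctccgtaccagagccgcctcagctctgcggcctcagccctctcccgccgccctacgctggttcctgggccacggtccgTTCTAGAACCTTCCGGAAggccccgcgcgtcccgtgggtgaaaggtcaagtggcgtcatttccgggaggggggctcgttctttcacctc
Hspa5, chr2:34771840-34772089, plus strand: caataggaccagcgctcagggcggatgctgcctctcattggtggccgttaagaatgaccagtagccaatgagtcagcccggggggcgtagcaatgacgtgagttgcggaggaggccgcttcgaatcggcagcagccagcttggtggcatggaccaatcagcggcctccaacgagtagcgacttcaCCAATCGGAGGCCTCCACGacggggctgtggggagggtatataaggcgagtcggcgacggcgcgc

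The 250 bases before Hspa1a and Hspa1b were identical at 247 positions (98.8%) and held the same match to GAANNTTC, 104 to 97 bases before the start. GAANNTTC was found in 6.69% of the 32851 mouse promoters of this length, and TTCNNGAA, found 33 to 26 bases before Hsph1, in 7.17%. Between Hspd1 and Hspe1 the capitals hold 2 overlapping matches, on opposite strands, to the longer form of TTCNNGAA with NNTTC added, which was present in 0.466% of promoters. The Hspa5 match lay 65 to 47 bases before the start, and 0.113% of promoters held one. No match to these letters lay in the same window of Dnajb1. These matches describe letters only and were not tested as binding sites.

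Hspa1a and Hspa1b encode the inducible cytosolic HSP70, and were the members that varied most between ORP4L KI libraries. Hspa1b (NM_010478, chr17:34956429-34959238) had 3443, 3295 and 3141 CPM in WT. In ORP4L KI it had 606, 2679, 6235 and 5421 CPM. The WT libraries lay close together, whereas ORP4L KI replicates 1 and 2 were below all of them and replicates 3 and 4 above all of them. The mean was 3293 ± 151 CPM (SD, n = 3) in WT and 3735 ± 2582 CPM (SD, n = 4) in ORP4L KI, a log2 fold change of 0.18 (standard error, SE, 0.61), far within the spread between ORP4L KI libraries. The lowest and the highest library differed 10.3-fold, and ORP4L KI replicate 1 was at 18.4% of the WT mean. The SD of log2 CPM of Hspa1b over the ORP4L KI libraries was at the 99.5 percentile of the 13462 genes tested, and that over the WT libraries at the 4.37 percentile. By number of reads, Hspa1b was the 16th, 19th and 12th gene in WT and the 303rd, 19th, 4th and 10th in ORP4L KI.

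Hspa1a (NM_010479, chr17:34969359-34972156), whose gene lies 10120 bases away from Hspa1b, had 1119, 1094 and 850 CPM in WT. In ORP4L KI it had 274, 709, 1857 and 1834 CPM. Again the ORP4L KI libraries lay on both sides of the WT libraries, with means of 1021 ± 149 CPM (SD, n = 3) and 1168 ± 802 CPM (SD, n = 4) and a log2 fold change of 0.19 (SE 0.56). The pair kept nearly the same proportions, Hspa1b giving between 68.9% and 79.1% of their reads in every library. Their transcripts are near copies, with 47.1% of the 100-base windows of Hspa1a found in Hspa1b and 49.9% of those of Hspa1b in Hspa1a, so the division of reads between them is uncertain. Their sum does not depend on that division if each shared read was counted once, which is not known. That sum was 4561, 4389 and 3991 CPM in WT and 879, 3388, 8091 and 7255 CPM in ORP4L KI. No other pair of members shared a window of 100 bases.

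For both genes the sign of the fold change rested on single libraries. Without ORP4L KI replicate 1 the log2 fold change was 0.52 (SE 0.35) for Hspa1a and 0.53 (SE 0.31) for Hspa1b. It was -0.12 and -0.18 without ORP4L KI replicate 3, and -0.11 and -0.06 without ORP4L KI replicate 4.

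**Figure D1:**
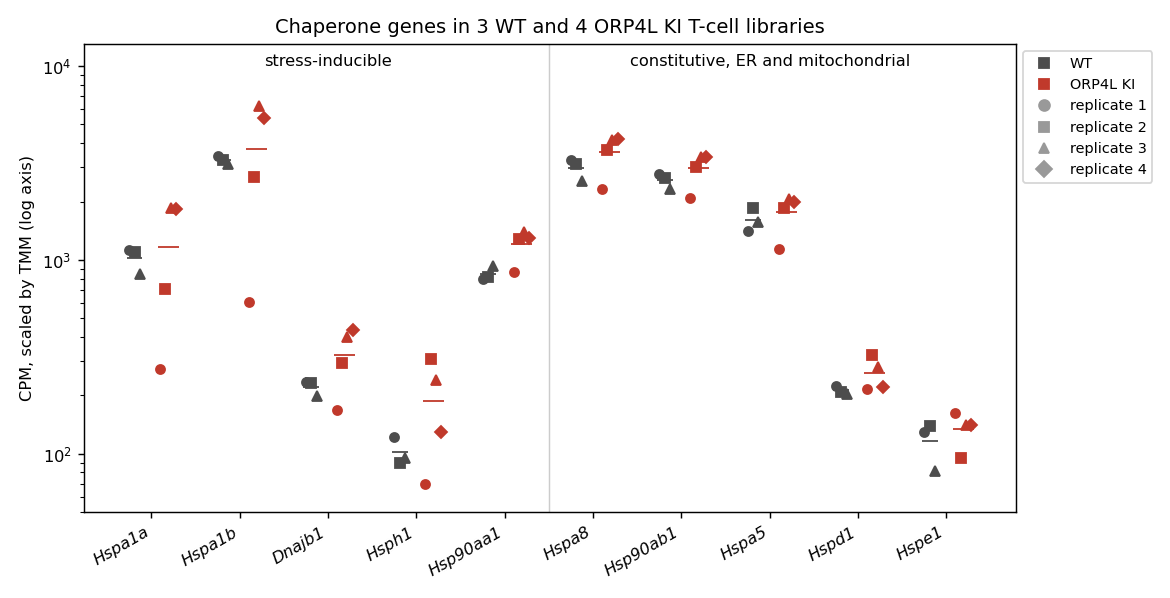
TMM-scaled CPM (vertical log axis) of the 10 members in every library, with WT in grey, ORP4L KI in red, a shape for each replicate number and a bar at the group mean. The 3 WT libraries of Hspa1b sit between 3141 and 3443 CPM, and the 4 ORP4L KI libraries are spread from 606 to 6235 CPM.

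The plot of CPM by library shows that the other inducible members spread less. Dnajb1 (chr8:83608175-83612653), a J-domain partner of HSP70, had 235, 232 and 199 CPM in WT and 167, 293, 401 and 436 CPM in ORP4L KI. ORP4L KI replicate 1 was the lowest of all libraries and the 3 other ORP4L KI libraries were above every WT library. The means were 222 ± 20.04 CPM (SD, n = 3) and 324 ± 121 CPM (SD, n = 4), a log2 fold change of 0.55 (SE 0.31). It was 0.76 (SE 0.20) without ORP4L KI replicate 1.

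Hsph1 (chr5:149616843-149636498) encodes HSP110, an exchange factor for HSP70, and had the largest fitted difference of the members. It had 122, 89.2 and 95.1 CPM in WT and 69.9, 307, 241 and 129 CPM in ORP4L KI. The lowest library was again ORP4L KI replicate 1, and ORP4L KI replicate 2, not 3 or 4, was the highest. The means were 102 ± 17.5 CPM (SD, n = 3) and 187 ± 107 CPM (SD, n = 4), with a log2 fold change of 0.87 (SE 0.44) that moved between 0.51 without ORP4L KI replicate 2 and 1.14 without ORP4L KI replicate 1.

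Hsp90aa1 (chr12:110691036-110696395), the inducible cytosolic HSP90, was the inducible member that varied least. It had 794, 821 and 928 CPM in WT and 863, 1286, 1399 and 1291 CPM in ORP4L KI. Of the ORP4L KI libraries, replicate 1 alone fell within the WT range, and by total counts it was below that range. The means were 848 ± 71.1 CPM (SD, n = 3) and 1210 ± 237 CPM (SD, n = 4), a log2 fold change of 0.51 (SE 0.23), and 0.64 (SE 0.18) without ORP4L KI replicate 1.

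Among the constitutive cytosolic members, Hspa8 (chr9:40801276-40805202), the housekeeping HSP70 also known as HSC70, had 3296, 3137 and 2542 CPM in WT and 2324, 3685, 4166 and 4213 CPM in ORP4L KI. Hsp90ab1 (chr17:45567778-45573261), the housekeeping HSP90, had 2773, 2645 and 2311 CPM in WT and 2098, 3017, 3397 and 3412 CPM in ORP4L KI. Both genes ordered the libraries alike, with ORP4L KI replicate 1 below every WT library and the other ORP4L KI libraries above. The log2 fold change was 0.27 (SE 0.28) for Hspa8 and 0.21 (SE 0.25) for Hsp90ab1, and without ORP4L KI replicate 1 it was 0.42 (SE 0.20) and 0.34 (SE 0.19). On the TMM scale, Hspa8 in ORP4L KI replicate 1 thus lay close to the lowest WT library, while Hspa1b lay far below all of them. By total counts Hspa8 had 1942 CPM in ORP4L KI replicate 1, against 2802 CPM in the lowest WT library.

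Hspa5 (chr2:34772090-34776529) encodes BiP, the HSP70 of the ER and a target of the unfolded protein response. It had 1408, 1845 and 1575 CPM in WT and 1139, 1850, 2073 and 1999 CPM in ORP4L KI. ORP4L KI replicate 2 exceeded the highest WT library only narrowly, and the log2 fold change was 0.13 (SE 0.27), or 0.29 (SE 0.20) without ORP4L KI replicate 1.

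The mitochondrial members Hspd1 (HSP60, chr1:55077833-55088243) and Hspe1 (its lid HSP10, chr1:55088148-55091317) are transcribed in opposite directions from the shared stretch printed above, and as their annotated ends overlap, reads from the overlap cannot be assigned without strand information. Hspd1 had 223, 208 and 204 CPM in WT and 215, 324, 280 and 221 CPM in ORP4L KI, a log2 fold change of 0.29 (SE 0.21). Hspe1 had 130, 139 and 81.5 CPM in WT and 162, 94.9, 141 and 141 CPM in ORP4L KI, a log2 fold change of 0.21 (SE 0.26). The library with the most Hspd1, ORP4L KI replicate 2, had the least Hspe1 of the ORP4L KI libraries, and ORP4L KI replicate 1 had the most Hspe1 of all 7 on the TMM scale but not by total counts, where its 135 CPM was below the 141 and 139 CPM of WT replicates 1 and 2 and the 140.5 CPM of ORP4L KI replicate 3. On the per-length RPKM scale the level of Hspe1 relative to Hspd1 was 1.84, 2.11 and 1.26 in WT and 2.39, 0.929, 1.60 and 2.03 in ORP4L KI. Hence these neighbours with a common upstream stretch did not order the libraries alike. The HSP70 pair did, but the division of reads between its genes is uncertain, so the pairs are not compared further.

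All 10 members passed the filter for low counts. The fitted log2 fold change was above 0 for 10 of 10, with a median of 0.24 against 0.01 over all genes tested. It was between 0.01 and 0.79, still above 0 for all 10, when libraries were scaled by total counts alone, a scaling that moved the median of all genes by -0.14. With the bounds drawn in the study's volcano plot (unadjusted p 0.01, log2 fold change of 1 either way), 0 of the 10 were called by edgeR's quasi-likelihood test, where 4.68% of all genes were called. At an unadjusted p under 0.05 the count was 0 of 10 with edgeR, where 13.7% of all genes passed, and 2 of 10 with DESeq2's Wald test, where 2108 of 13462 genes passed. At an adjusted p under 0.05 it was 0 of 10 with both, where 0.0223% of all genes passed with edgeR and 5.82% with DESeq2. For 0 of 10 did the groups not overlap, which was the case for 13.8% of all genes. Without ORP4L KI replicate 1 the median was 0.47, and 1 of 10 was called, Hsph1, with 4.25% of all genes called. In that fit 3 of 10 passed an unadjusted p under 0.05 by edgeR, as did 1815 of 13338 genes. ORP4L KI replicate 1 was the lowest of the 7 libraries for 7 of 10 members and for 28.1% of all genes. ORP4L KI replicates 2, 3 and 4 were all above every WT library for 6 of 10 members (Dnajb1, Hsph1, Hsp90aa1, Hspa8, Hsp90ab1 and Hspa5) and for 9.6% of all genes. When scaled by total counts alone, the lowest library was ORP4L KI replicate 1 for 9 of 10 members (41.6% of all genes), and ORP4L KI replicates 2, 3 and 4 were above every WT library for 4 of 10 (Dnajb1, Hsp90aa1, Hspa8 and Hsp90ab1, and 6.98% of all genes). As the members were chosen with this contrast known, nothing is read from these shares.

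**Figure D2:**
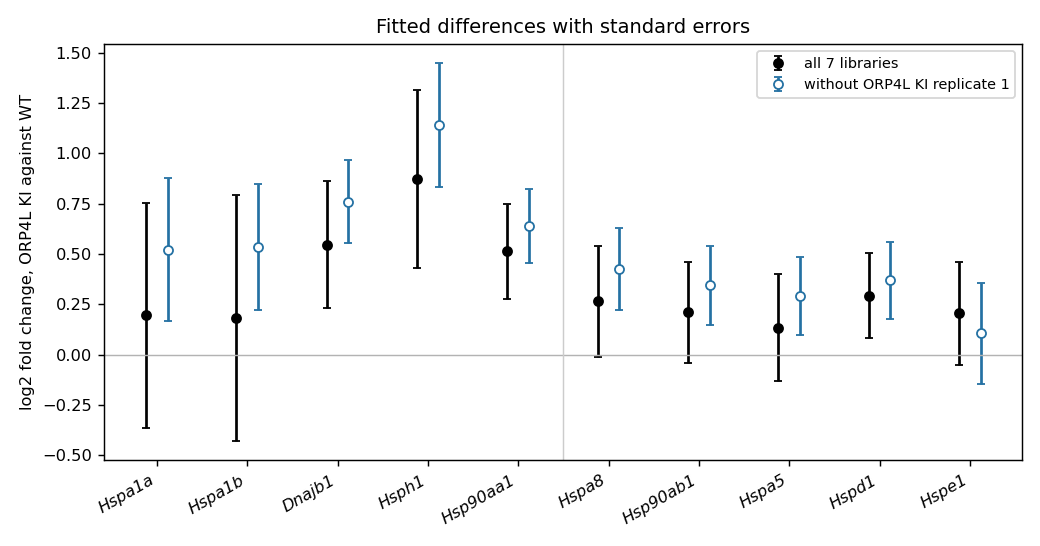
Fitted log2 fold change, ORP4L KI against WT, of each member (vertical axis) with its standard error as bars, from all 7 libraries (filled black) and without ORP4L KI replicate 1 (open blue). The standard errors of Hspa1a and Hspa1b are the widest with all libraries (0.56 and 0.61), and Hsph1 has the highest value in both fits (0.87 and 1.14).

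The inducible class was then compared with the other class within each library, using the mean log2 CPM of its 5 members. The inducible mean was 9.26, 9.16 and 9.08 in WT and 8.12, 9.53, 10.10 and 9.87 in ORP4L KI. The mean of the others was 9.68, 9.73 and 9.43 in WT and 9.49, 9.83, 10.01 and 9.93 in ORP4L KI, all within a narrower range. The difference, inducible minus other, was -0.42, -0.57 and -0.34 in WT and -1.37, -0.30, 0.09 and -0.06 in ORP4L KI. ORP4L KI replicate 1 was below and ORP4L KI replicates 2, 3 and 4 were above every WT library. The group means were -0.44 ± 0.12 (SD, n = 3) in WT and -0.41 ± 0.66 (SD, n = 4) in ORP4L KI, so they differed by 0.03, far less than the pooled SD of 0.52. Without ORP4L KI replicate 1 the ORP4L KI mean was -0.09 ± 0.20 (SD, n = 3) and the groups differed by 0.35. When Hspa1a and Hspa1b were left out of the inducible class, the difference between the groups was 0.34 with all 7 libraries. In summed CPM, the inducible members had 5712, 5531 and 5212 in WT and 1980, 5274, 10132 and 9111 in ORP4L KI, against 7830, 7974 and 6714 and 5938, 8971, 10057 and 9985 for the others.

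**Figure D3:**
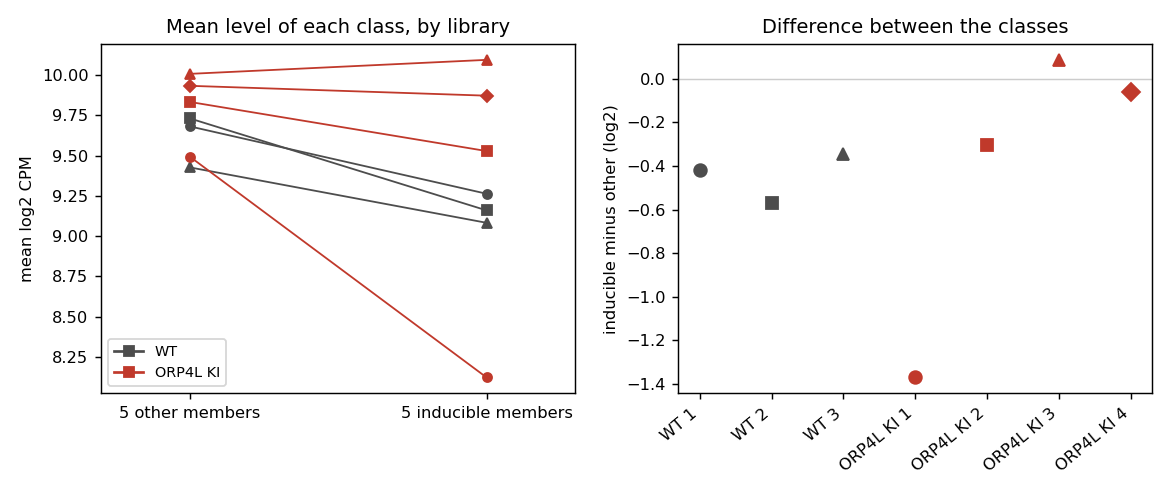
Left, mean log2 CPM of the 5 inducible and the 5 other members in each library, joined by a line (grey, WT; red, ORP4L KI; shapes as replicate numbers), and right, the difference between the classes in log2 units by library. ORP4L KI replicate 1 has the steepest line, with a difference of -1.37, and the other ORP4L KI libraries lie between -0.30 and 0.09.

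Levels between genes were compared per length, in the deposited RPKM. In WT the order was Hspa8 (1504 ± 182 RPKM, SD, n = 3), Hspa1b (1242 ± 77.9), Hsp90ab1 (1088 ± 95.5), Hspa5 (649 ± 61.9), Hspa1a (386 ± 49.1), Hsp90aa1 (316 ± 37.7), Hspe1 (160 ± 37.4), Hspd1 (92.3 ± 6.90), Dnajb1 (77.9 ± 5.90) and Hsph1 (32.2 ± 6.45). The ranges overlapped for the neighbours Hspa1b and Hsp90ab1 and for Hspa1a and Hsp90aa1, and for no other neighbours. The inducible HSP70 gene Hspa1b, taken alone, was thus next to the highest of the 10 in WT. As the division of reads between it and Hspa1a is uncertain, the places of both are uncertain too. In ORP4L KI the leading members were Hspa8 (1660 ± 495 RPKM, SD, n = 4), Hspa1b (1300 ± 890) and Hsp90ab1 (1152 ± 305), and Hspe1 and Dnajb1 were the only neighbours whose ranges were separate.

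The ratios of inducible to housekeeping paralog differed between the HSP70 and the HSP90 genes. The level of Hspa1b relative to Hspa8, in RPKM, was 0.782, 0.786 and 0.925 in WT and 0.195, 0.544, 1.12 and 0.963 in ORP4L KI. This ratio leaves out Hspa1a and rests on the uncertain division of reads between the pair, so its size does not give the inducible HSP70 as a whole. That of Hsp90aa1 relative to Hsp90ab1 was 0.252, 0.273 and 0.353 in WT and 0.362, 0.375, 0.362 and 0.333 in ORP4L KI. The HSP90 ratio was nearly even over the ORP4L KI libraries, replicate 1 included, and the HSP70 ratio was not. Depth and cell makeup differ between the 7 libraries and are common to all genes within a library, so correlations are given as a description. The log2 CPM of Hspa8 and Hsp90ab1 had Pearson r = 0.998, that of Hspa1a and Hspa1b r = 0.979, and that of Hspd1 and Hspe1 r = -0.203. Over the 6 libraries without ORP4L KI replicate 1 these were 0.996, 0.970 and -0.107.

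The libraries with more than 100 CPM of Ddx3y are 2 of each group and leave out ORP4L KI replicate 1. Within them both ORP4L KI libraries were above both WT libraries for 10 of 10 members, which was the case for 20.7% of all genes. When scaled by total counts alone this held for 7 of 10 members, without Hspa5, Hspd1 and Hspe1, and for 15.5% of all genes. The log2 difference was 0.94 for Hspa1a, 0.85 for Hspa1b, 0.96 for Dnajb1, 0.94 for Hsph1 and 0.62 for Hsp90aa1, and between 0.26 and 0.57 for the others. Within the 3 libraries with the higher Xist level, WT replicate 1 and ORP4L KI replicates 1 and 2, it was -1.34 for Hspa1a and -1.43 for Hspa1b, and between -0.17 and 0.41 for the 8 others. These subsets were chosen after the values were seen, hold 1 to 2 libraries a group and were not tested.

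Markers of other cell types differed between the groups. In ORP4L KI, Hspa1b had 606, 2679, 6235 and 5421 CPM, and the granulocyte marker sum was 144044, 10224, 30680 and 52957 CPM. The dendritic cell marker sum was 567, 770 and 499 CPM in WT and 152, 208, 269 and 183 CPM in ORP4L KI. Within ORP4L KI it was lowest in replicate 1 and highest in replicate 3, as was Hspa1b, but replicates 2 and 4 were in the opposite order. All WT libraries were above all ORP4L KI libraries in this sum, which was not so for Hspa1b. All 14 granulocyte markers were called higher in ORP4L KI (2.38% of all genes were) and 7 of 8 dendritic cell markers lower (2.3% of all genes were), while 0 of 10 T-cell markers were called and 0 of these passed an unadjusted p under 0.05 by edgeR or an adjusted p under 0.05 by DESeq2's Wald test. Of the NK cell markers 5 of 9 were called lower, and of the monocyte and macrophage markers 1 of 12 higher and 2 of 12 lower. Of 20 proliferation markers 4 were called higher, 14 were higher at an unadjusted p under 0.05 by edgeR, and their sum was between 726 and 1137 CPM in WT and between 1280 and 2689 CPM in ORP4L KI. The erythroid markers summed to between 9857 and 18655 CPM in WT and between 1166 and 8683 CPM in ORP4L KI. Relative to the summed T-cell markers, the level of Hspa1b was 129.5%, 163.6% and 113.9% in WT and 46.0%, 68.8%, 235.3% and 190.1% in ORP4L KI. On that scale Hspa8 was at 124.0%, 155.8% and 92.2% in WT and 176.6%, 94.6%, 157.2% and 147.7% in ORP4L KI. Hence in ORP4L KI replicate 1 Hspa8 was the highest of the 7 libraries and Hspa1b the lowest. The group difference on this scale, chosen after the values were seen, was -0.19 in log2 units for Hspa1a and -0.30 for Hspa1b, and 0.44 and 0.65 for Dnajb1 and Hsph1. The part of these markers in the members' values was not tested.

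**Figure D4:**
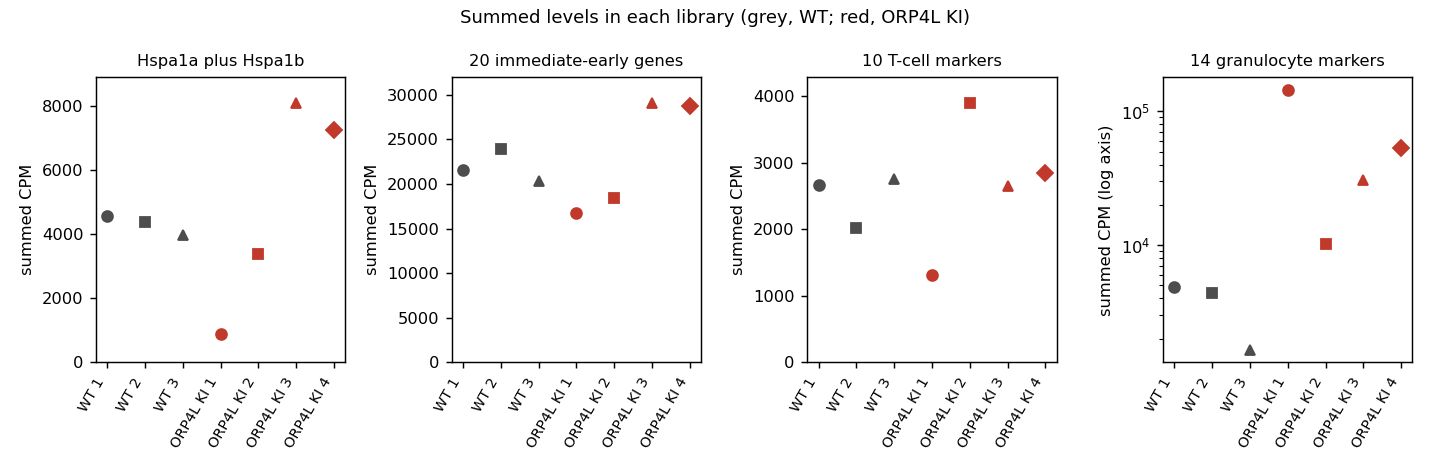
Summed CPM (vertical axis, log for the granulocyte markers) in each library of Hspa1a plus Hspa1b, of 20 immediate-early genes, of 10 T-cell markers and of 14 granulocyte markers, with WT in grey and ORP4L KI in red. ORP4L KI replicate 1 has the lowest HSP70 sum (879 CPM), immediate-early sum (16800 CPM) and T-cell marker sum (1316 CPM) and the highest granulocyte sum (144044 CPM).

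Immediate-early genes such as Fos, Jun and Egr1 respond within minutes to activation and to tissue handling, and were set beside the inducible chaperones. Their 20 genes summed to 21518, 23905 and 20328 CPM in WT and 16800, 18408, 29067 and 28772 CPM in ORP4L KI. As in the sum of Hspa1a and Hspa1b, ORP4L KI replicates 1 and 2 were below and replicates 3 and 4 above every WT library. Of the 20 genes, 1 (5.0%) was called by edgeR's quasi-likelihood test, close to the 4.68% of all genes. Ier3, an early response gene of the NF-κB pathway, had 33.4, 80.7 and 39.1 CPM in WT and 158, 98.4, 87.1 and 106 CPM in ORP4L KI, a log2 fold change of 1.14 (SE 0.35, adjusted p = 0.169 by edgeR), and its call was lost without WT replicate 1 or 3, or ORP4L KI replicate 1 or 4. The largest fall in fitted value was that of Atf3, a stress-responsive transcription factor, at -0.54 (SE 0.29, adjusted p = 0.467 by edgeR). The part of handling in the chaperone values was not tested.

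The genes whose log2 CPM over the 7 libraries was most like the mean of the 5 inducible members were sought among 9188 genes with a mean log2 CPM of at least 3, of which 40 had r above 0.9. They were Arl4a (Pearson r = 0.977, Spearman rho = 0.893), Junb (0.963 and 0.929), Cdr2 (0.959 and 0.964), Ftsj3 (0.953 and 0.929) and Samd14 (0.951 and 0.893). Without ORP4L KI replicate 1, over 6 libraries, r was 0.938, 0.912, 0.922, 0.881 and 0.887. Junb, an AP-1 subunit, had 3942, 3968 and 3172 CPM in WT and 2253, 4563, 5394 and 6108 CPM in ORP4L KI. These values describe likeness over few libraries, between which depth and cell makeup differ.

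The wider chaperone network, 113 further genes in 6 lists, was examined in the same fit, in which 111 passed the filter. By edgeR's quasi-likelihood test 0 of the 111 were called, 6 passed an unadjusted p under 0.05 and 0 an adjusted p under 0.05, whereas DESeq2's Wald test gave 1 at that adjusted p. Over all genes 4.68% were called and 13.7% passed an unadjusted p under 0.05. The groups did not overlap for 9 of the 111 and for 13.8% of all genes. The median log2 fold change was 0.07, and 70 of the 111 values were above 0, against a median of 0.01 over all genes.

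In the list of HSF and heat-shock partners 0 of 18 tested genes were called, 4 passed an unadjusted p under 0.05 (3 higher and 1 lower), and the median was 0.14. Dnaja4, a J-domain protein induced by heat, had 21.4, 17.04 and 26.2 CPM in WT and 20.5, 56.4, 48.2 and 46.5 CPM in ORP4L KI, a log2 fold change of 0.99 (SE 0.33, adjusted p = 0.213 by edgeR). Bag3, a stress-induced partner of HSP70 in autophagy, had 32.5, 35.3 and 33.5 CPM in WT and 27.0, 62.2, 68.5 and 83.4 CPM in ORP4L KI, a log2 fold change of 0.84 (SE 0.33, adjusted p = 0.304 by edgeR). In both genes ORP4L KI replicate 1 lay within or below the WT range and the 3 others above it, as in Dnajb1 and Hsph1. Without ORP4L KI replicate 1 these were the only 2 called of the 113 network genes, with log2 fold changes of 1.22 and 1.08. In that fit 4.25% of all genes were called. The other genes with an unadjusted p under 0.05 were Hspa4l and Serpinh1. Hspa4l, an HSP110 relative, had a log2 fold change of 0.51 (SE 0.20, adjusted p = 0.293 by edgeR). It had 14.3, 15.8 and 17.6 CPM in WT and 25.99, 24.3, 20.3 and 19.9 CPM in ORP4L KI. Unlike in Dnaja4 and Bag3, the groups did not overlap and ORP4L KI replicate 1 was the highest library. Serpinh1, the collagen chaperone of the ER, was at -1.46 (SE 0.62, adjusted p = 0.331 by edgeR), with ORP4L KI replicate 1 the lowest library. Hsf1, the heat-shock factor itself, had 63.8, 63.8 and 53.5 CPM in WT and 39.1, 53.6, 50.4 and 57.1 CPM in ORP4L KI, with a log2 fold change of -0.27 (SE 0.19, adjusted p = 0.622 by edgeR).

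Among J-domain proteins and exchange factors 0 of 20 genes were called and 0 had an unadjusted p under 0.05 by edgeR, with 0 at an adjusted p under 0.05 by DESeq2's Wald test and a median of 0.04. Dnaja1, the general J-domain partner of HSC70, had 388, 405 and 464 CPM in WT and 419, 684, 606 and 655 CPM in ORP4L KI, a log2 fold change of 0.50 (SE 0.23, adjusted p = 0.386 by edgeR). The lowest value was that of Dnajb5, at -0.36 (SE 0.23, adjusted p = 0.567 by edgeR).

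Among the HSP90 co-chaperones 0 of 20 were called, 1 had an unadjusted p under 0.05 and the median was 0.04. Fkbp5, an HSP90-bound immunophilin that is induced by glucocorticoids, had 53.3, 42.3 and 46.4 CPM in WT and 90.1, 112, 78.3 and 63.4 CPM in ORP4L KI. The groups did not overlap, with all ORP4L KI libraries higher, and the log2 fold change was 0.86 (SE 0.23, adjusted p = 0.126 by edgeR), or 0.83 without ORP4L KI replicate 1. It was the network gene with an adjusted p under 0.05 in DESeq2's Wald test, and in ORP4L KI replicate 1, where Hspa1a, Hspa1b, Dnajb1 and Hsph1 were lowest, it was above every WT library. Ttc4 had the lowest value, -0.39 (SE 0.22, adjusted p = 0.505 by edgeR).

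In the ER list 0 of 22 were called, 1 had an unadjusted p under 0.05 and the median was 0.07. Dnajb9, the ER J-domain protein ERdj4 and a partner of BiP, had 72.9, 97.7 and 126 CPM in WT and 119, 157, 152 and 151 CPM in ORP4L KI, a log2 fold change of 0.55 (SE 0.23, adjusted p = 0.320 by edgeR), and Ern1, the ER stress sensor IRE1, had the lowest value at -0.72 (SE 0.36, adjusted p = 0.430 by edgeR). The summed CPM of this list was 4743, 5014 and 4040 in WT and 6542, 4595, 4761 and 5274 in ORP4L KI. It was thus highest in ORP4L KI replicate 1, the library with the least Hspa5.

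Among the mitochondrial chaperones and proteases 0 of 16 were called and 0 had an unadjusted p under 0.05 by edgeR, with 0 at an adjusted p under 0.05 by DESeq2's Wald test. The values ran from -0.28 (SE 0.26, adjusted p = 0.724 by edgeR) for Hscb, a J-domain protein of iron-sulfur cluster assembly, to 0.33 (SE 0.20, adjusted p = 0.533 by edgeR) for Grpel1, the exchange factor of mitochondrial HSP70. For TRiC, the cytosolic chaperonin, and prefoldin, which feeds it, 0 of 15 were called and 0 had an unadjusted p under 0.05 by edgeR, with 0 at an adjusted p under 0.05 by DESeq2's Wald test. In that list 14 of 15 values were above 0, but their median of 0.12 was less in size than the shift that scaling by total counts brought to all genes. The list ran from the TRiC subunit Cct5 at -0.03 (SE 0.20, adjusted p = 0.968 by edgeR), whose sign turned without WT replicate 1 or 2 or ORP4L KI replicate 2, to the prefoldin subunit Pfdn4 at 0.35 (SE 0.31, adjusted p = 0.713 by edgeR).

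**Figure D5:**
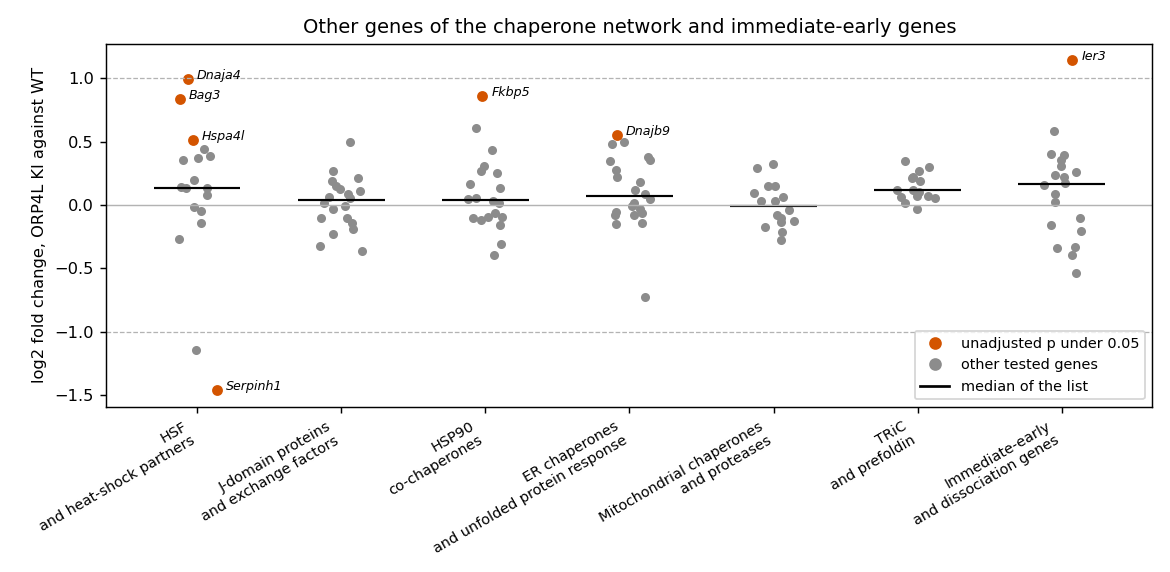
Fitted log2 fold change, ORP4L KI against WT (vertical axis), of every tested gene in the 6 network lists and the immediate-early list, with a black bar at each median, genes with an unadjusted p under 0.05 in orange and dashed lines at 1 and -1. Of the network genes Dnaja4 is highest at 0.99, just under the line, and the TRiC and prefoldin values lie closest together, between -0.03 and 0.35.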

How the data were processed

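T-cell libraries of 4 ORP4L KI mice and 3 WT littermates were grouped by the genotype in the labels, and the study counts each library as 1 mouse. The authors prepared mRNA libraries, sequenced them on a NovaSeq 6000, discarded reads under 17 nt, mapped the rest to mouse mRNA with FANSe3 and deposited, per gene, raw read counts with splice variants merged. They also deposited RPKM over the longest transcript, used here for levels between genes only. The submitters' processing notes name mm10. Strandedness and the treatment of multi-mapping reads are not given in the sources used here. The total count was between 12918187 and 15912921 in WT and between 16757959 and 19665679 in ORP4L KI, and no libraries agreed within sampling noise.

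The counts were fitted with edgeR 4.0.16 in R 4.3.3 (TMM, filterByExpr, quasi-likelihood test, no covariates) over 13462 genes. CPM is TMM-scaled, and log2 CPM used a prior count of 2. The standard error is the log2 fold change divided by the square root of F. Calls required an unadjusted p under 0.01 with a log2 fold change beyond 1 in either direction, and, as another rule, a Benjamini-Hochberg adjusted p under 0.05. The fit was tested on simulated data. Members and lists were chosen with earlier results of these data known. Besides the members, the genes named are those called in a list, the largest rise and fall in each list at a mean log2 CPM of at least 3, Osbp2, Xist, Ddx3y and the 5 genes most like the inducible mean. Bag3, Hspa4l and Serpinh1 are not covered by this rule and were picked with their values known. Coordinates and sequences are RefSeq's (GRCm38.p6), and transcript windows were compared in GENCODE M21. Alternatives were other scalings, filters and tests (DESeq2 1.42.0), a replicate block, each library left out, thinned counts and the HSP70 pair summed.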

Additional observations from a re-analysis of the deposited data

Results flagged for a closer look

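Over 33 groups of 4 ORP4L KI values, for the named and member genes, a lone distant library was found in 2, where chance gives about 1.65. Dnajb9 had 118.6 CPM in ORP4L KI replicate 1 and between 150.9 and 157.3 CPM in the 3 other ORP4L KI libraries. Pfdn4 had 19.7 CPM in ORP4L KI replicate 1 and between 8.93 and 10.8 CPM in the others. Groups of 3 were not examined in this way.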

How the results depend on the processing

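The count of genes called at the fold threshold was 630, and between 328 (without WT replicate 2) and 805 when a library was left out. At an adjusted p under 0.05 it was 3, and 784 with DESeq2's Wald test, 706 with the likelihood ratio test, 113 when scaled by total counts alone, 44 by upper quartile, 176 with no filter and 0 with 10 counts in every library (1549 at an unadjusted p under 0.05 by edgeR), between 0 and 342 with a library left out, and 285 at an adjusted p under 0.1. Members called were 0, and 0 to 1 with a library left out. Network genes called were 0, 1 with the Wald test and 0 to 2 with a library left out. Immediate-early genes called were 1, 0 with total counts alone, and 0 to 1 with a library left out. The cause of these differences was not tested. The value of Cct5 was between -0.18 and 0.054 with a library left out, and above 0 without WT replicate 1 (0.054), WT replicate 2 (0.051) or ORP4L KI replicate 2 (0.0083).

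The difference between the classes, 0.03 in the main fit, ran from -0.13 without ORP4L KI replicate 3 to 0.35 without ORP4L KI replicate 1. All alternatives lay within the pooled SD of 0.52 around 0.03, but that SD includes ORP4L KI replicate 1. Without that library the SD in ORP4L KI was 0.20 rather than 0.66, and that in WT was 0.12. The 3 remaining ORP4L KI libraries were then all above every WT library, so the difference depends on that library. Replicates 1 to 3 share numbers between groups, and the deviations of same-numbered libraries correlated at 0.15, -0.53 and -0.002. These values cannot show whether same-numbered samples were paired, and the labels give no pairing beyond the number. With a replicate block, which leaves out ORP4L KI replicate 4, 466 genes were called at the fold threshold and 48 at an adjusted p under 0.05, with 0 members, 0 network genes and 0 immediate-early genes called, and a class difference of -0.09. The fitted values of Hspa1a and Hspa1b were then -0.52 and -0.57. Counts thinned to the smallest library called 0 members as well. The order of libraries under total counts, given with the members, was examined after the data were seen.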
